A study of Mus musculus with 24 samples.

Results

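Brain microglia of Cre+ mice were compared with those of Cre- mice after remyelination, where tamoxifen had been given at the start of the experiment. The comparison uses 6 of the 24 RNA-seq libraries of the series, 3 per genotype, chosen by their labels alone. It covers all 15743 genes with enough counts to test, of 49315 in the count table.

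Mice of both genotypes received tamoxifen, then cuprizone, a copper chelator that kills oligodendrocytes and strips myelin, for 6 weeks, then normal diet for 6 weeks, over which myelin regrows. For the group studied here the series text places tamoxifen at 4-5 weeks, without saying from what the weeks are counted. In a parallel pair of groups, called the peak groups here, tamoxifen came in week 5 of cuprizone. Cre+ mice carried Cx3cr1creERT2, a tamoxifen-dependent Cre recombinase driven from the Cx3cr1 locus, and are the Dicer1 knockout mice of the series. Cre- mice received the same tamoxifen and diets and are its wild type. The Cx3cr1 locus is active in microglia and also in other macrophages and in monocytes. Microglia were sorted as CD45int CD11b+ cells, and the remaining groups of the series were naive mice given only tamoxifen and mice at the end of the 6 weeks of cuprizone. The series text calls the 3 samples of each group biological replicates. The labels do not number animals, and a p-value here speaks only of the scatter among the 3 samples within groups. In the main test that scatter is taken over the start and the peak groups, with information on spread shared across genes.

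Dicer is the RNase that cuts hairpin precursors into mature microRNAs, which load onto Argonaute proteins and repress messenger RNAs that match their seed. A microRNA made before its Dicer gene is lost can persist, so the effect of a deletion can depend on the time since it. Chaperones of the heat shock response, to which several of the called genes belong, keep proteins folded. In that response the factor HSF1 binds inverted repeats of nGAAn in promoters and switches on HSP70, its HSP40 and HSP110 partners, HSP90 and the small heat shock proteins. Microglia are the resident macrophages of the brain and clear myelin debris during remyelination.

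The 6 libraries held between 8873275 and 12560540 counts. No pair of libraries of the same group matched within sampling noise. Expression is given as CPM, the count of a gene relative to the library total as scaled by the TMM method, and a gene is said to have risen or fallen where edgeR's quasi-likelihood test gave an adjusted p under 0.05. The test was fitted to the 12 remyelination libraries. Of the 15743 genes, 16 passed (0.102%), 13 higher in Cre+ mice (0.0826%) and 3 lower (0.0191%). All 16 had values that did not overlap between the genotypes, as did 2294 genes in all (14.6%). The first principal component of the 6 libraries, with 36.7% of the variance, did not separate the genotypes. Before any adjustment, 615 genes (3.91%) were higher and 679 (4.31%) lower at p under 0.05.

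Of those 13 higher genes, 7 belong to a list of 16 heat shock chaperone genes. These are Hspa1a, Hspa1b, Hsph1, Hspb1, Dnajb1, Hspe1 and Hsp90aa1. The sequence just before the start of a gene is where HSF1 would bind, so the 250 bases upstream of 5 of them are printed here from RefSeq (GRCm38.p6), on the strand of the gene, 5′ to 3′. Capitals mark each GAANNTTC or TTCNNGAA, a pair of inverted nGAAn units in either order. Each motif is its own reverse complement, so a search of 1 strand covers both, and neighbouring matches may overlap.
Hspa1a (chr17:34972157-34972406, minus strand): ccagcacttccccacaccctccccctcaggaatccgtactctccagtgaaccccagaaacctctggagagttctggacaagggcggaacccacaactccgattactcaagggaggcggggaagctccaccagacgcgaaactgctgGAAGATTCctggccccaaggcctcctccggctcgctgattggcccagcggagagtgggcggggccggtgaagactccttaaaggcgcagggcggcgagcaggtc
Hspa1b (chr17:34959239-34959488, minus strand): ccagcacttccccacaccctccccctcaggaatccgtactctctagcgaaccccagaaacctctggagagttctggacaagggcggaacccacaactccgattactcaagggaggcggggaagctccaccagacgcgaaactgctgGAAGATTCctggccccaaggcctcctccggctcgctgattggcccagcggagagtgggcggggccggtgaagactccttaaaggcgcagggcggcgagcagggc
Hspb1 (chr5:135887669-135887918, plus strand): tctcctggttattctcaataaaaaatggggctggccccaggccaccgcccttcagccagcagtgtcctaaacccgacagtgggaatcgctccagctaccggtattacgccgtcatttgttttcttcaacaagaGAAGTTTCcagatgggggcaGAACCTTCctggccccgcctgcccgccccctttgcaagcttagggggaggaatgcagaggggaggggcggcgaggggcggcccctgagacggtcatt
Hsph1 (chr5:149636316-149636565, minus strand): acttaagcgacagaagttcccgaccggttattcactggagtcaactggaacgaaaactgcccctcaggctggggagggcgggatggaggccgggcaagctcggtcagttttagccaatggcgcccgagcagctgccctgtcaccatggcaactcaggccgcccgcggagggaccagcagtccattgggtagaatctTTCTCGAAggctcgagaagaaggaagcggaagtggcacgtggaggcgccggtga
Hspe1 (chr1:55087898-55088147, plus strand): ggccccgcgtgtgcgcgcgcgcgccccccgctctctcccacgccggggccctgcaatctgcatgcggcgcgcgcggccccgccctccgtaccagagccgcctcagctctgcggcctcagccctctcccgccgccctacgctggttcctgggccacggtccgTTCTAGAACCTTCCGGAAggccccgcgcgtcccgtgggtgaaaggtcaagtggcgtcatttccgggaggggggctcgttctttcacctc

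The Hspa1a and Hspa1b stretches are identical at 247 of 250 bases, and each has 1 match, at position -104 counted back from the start. Hspb1 has matches at -117 and -97, and Hsph1 has 1 at -54. In Hspe1, overlapping matches cover the bases from -89 to -72. The gene Hspd1 starts from the same stretch in the other direction. Hsp90aa1 is named without a sequence, and the Dnajb1 stretches held no match. So 5 of the 6 risen chaperone genes with a promoter entry held a match (83.3%), against 12.4% of the 10700 tested genes with an entry and 12.8% of all 32851 promoters in the table. Of the 6 chaperone genes with an entry that were on the list and did not pass the test, 3 held a match, Hspd1 among them with the stretch it shares with Hspe1. Runs of 3 units, GAANNTTCNNGAA or TTCNNGAANNTTC, were also searched and were found in 0.45% of tested genes. They were in 1 of the 6 risen chaperone genes, Hspe1, and in 1 of the 6 that did not pass, Hspd1. A match describes letters in this window and does not show binding.

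Dicer1 itself was read at 38.38, 44.25 and 39.44 CPM in the Cre- libraries and at 38.48, 38.21 and 40.38 CPM in the Cre+ libraries. The groups overlapped, and the log2 fold change was -0.06 ± 0.10 (SE), with an adjusted p of 0.926 in edgeR's test. The sources used here do not name the deleted exon, and counts summed over all exons do not check the deletion of 1 of them.

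Cx3cr1, the fractalkine receptor gene that carries the recombinase, fell. Its level was 8353, 7365 and 8987 CPM in the Cre- libraries and 4194, 4083 and 4943 CPM in the Cre+ libraries. Every Cre+ library was below every Cre- library. The log2 fold change was -0.90 ± 0.11 (adjusted p 0.0002316, edgeR), and it was -1.10 in the peak groups (adjusted p 1.25e-06).

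The smallest p-values belonged to the stress-inducible HSP70 genes Hspa1a and Hspa1b, neighbours on chromosome 17 whose products refold damaged proteins. Hspa1a was at 438.9, 470.7 and 478.6 CPM in Cre- libraries and at 1420, 1329 and 1103 CPM in Cre+ libraries. Hspa1b was at 934.7, 963.6 and 944.2 CPM in Cre- libraries and at 2682, 2616 and 2408 CPM in Cre+ libraries. The lowest Cre+ value of each gene lay well above the highest Cre- value. Hspa1a rose by 1.47 ± 0.13 in log2 (adjusted p 1.935e-06, edgeR) and Hspa1b by 1.44 ± 0.13 (adjusted p 2.053e-06).

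Hspa1a and Hspa1b are near-identical copies, and the sources used here do not say how reads that match both were counted, which makes the split between them uncertain. Gm8696, a processed pseudogene beside Hspa1b (chr17:34954328-34954712), rose with them, by 1.69 ± 0.27 in log2 (adjusted p 0.01861, edgeR). It was outside the rule for named genes and is given because it may share their reads. Its call was lost without Cre- replicate 3, Cre+ replicate 1 or Cre+ replicate 2. Summed as 1 gene, the 3 stood at 1383, 1439 and 1431 CPM in Cre- libraries and at 4128, 3973 and 3529 CPM in Cre+ libraries. That sum rose by 1.45 ± 0.12 in log2 (adjusted p 2.259e-06, edgeR), in an alternative chosen after seeing the data.

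Of the partners of HSP70 on the list, Hsph1 and Dnajb1 rose. Hsph1, the HSP110 protein that exchanges the nucleotide of HSP70, was at 27.37, 26.35 and 23.57 CPM in Cre- libraries and at 65.23, 64.04 and 61.12 CPM in Cre+ libraries. The 3 Cre+ values lay closer together than the distance to any Cre- value, and the rise was 1.30 ± 0.12 in log2 (adjusted p 3.413e-06, edgeR). Dnajb1, the HSP40 protein that delivers clients to HSP70, was at 86, 98.76 and 80.11 CPM in Cre- libraries and at 176.7, 154.8 and 149.1 CPM in Cre+ libraries. Its groups did not overlap either, and it rose by 0.86 ± 0.10 (adjusted p 0.0001812).

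Hsp90aa1, the stress-inducible form of cytosolic HSP90, was at 227.4, 298.7 and 254.5 CPM in Cre- libraries and at 458.4, 432.7 and 466 CPM in Cre+ libraries. It rose by 0.80 ± 0.12 in log2 (adjusted p 0.002425, edgeR), and Cre- replicate 2 was the highest of its group. Hsp90ab1, the form made without stress, did not pass, with a log2 fold change of 0.20 and an adjusted p of 0.704. Hspb1 encodes the small heat shock protein HSP27, which holds unfolded proteins in solution. It was low, at 4.116, 4.425 and 3.421 CPM in Cre- libraries and at 12.17, 8.895 and 10.19 CPM in Cre+ libraries. The rise was 1.38 ± 0.23 (adjusted p 0.008086, edgeR), and leaving out Cre- replicate 3 or Cre+ replicate 1 ended the call.

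Hspe1, which encodes the small HSP10 lid of the mitochondrial chaperonin, rose. It was at 47.28, 44.55 and 37.63 CPM in Cre- libraries and at 76.77, 74.25 and 78.56 CPM in Cre+ libraries, a log2 rise of 0.83 ± 0.11 (adjusted p 0.0006393, edgeR). Hspd1, the HSP60 barrel that this lid closes, was at 68.31, 71.41 and 63.77 CPM in Cre- libraries and at 69.53, 62.03 and 72.69 CPM in Cre+ libraries. The groups of Hspd1 overlapped throughout, with a log2 fold change of 0.005 and an adjusted p of 0.995. The pair is transcribed in opposite directions from the promoter printed above for Hspe1. Hspe1 and Hspd1 were not tested against each other.

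The other members of the chaperone list gave no call. Bag3, an HSP70 co-chaperone, had a log2 fold change of 0.59 and an adjusted p of 0.322, with no overlap between the groups. For Hspa8, the HSP70 made without stress, the value was 0.12, and for Hspa5, the HSP70 of the endoplasmic reticulum, 0.06. For Hsf1, the gene of the factor that drives the response, it was 0.09. Taking all 16 genes, 7 rose and 0 fell by the adjusted test, 15 had a positive fold change, and the median was 0.40 against 0 over all genes tested. Their CPM summed to 3854, 4319 and 4040 in the Cre- libraries and to 7235, 6882 and 7007 in the Cre+ libraries.

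**Figure D1:**
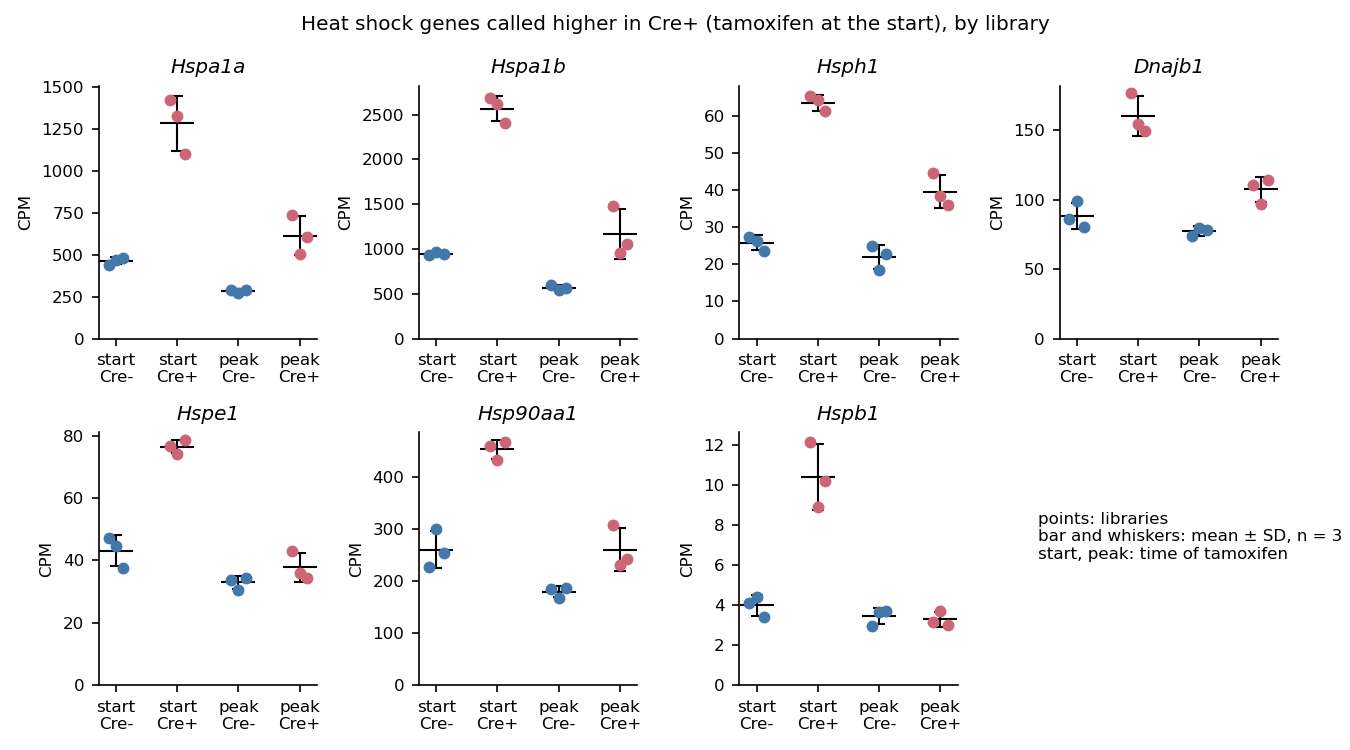
CPM of the 7 risen heat shock chaperone genes by library (linear axes from 0), Cre- in blue and Cre+ in red, with tamoxifen at the start and at the peak, and bars giving mean ± SD (n = 3 per group). The start Cre+ points of Hspa1a, from 1103 to 1420, all lie above the Cre- points, from 438.9 to 478.6, and the peak points of Hspb1 overlap between genotypes.

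Outside the chaperones and the pseudogene Gm8696, 5 genes rose, and 2 fell beside Cx3cr1. Crtap, which encodes a partner of the prolyl 3-hydroxylase that modifies collagen, was at 23.25, 28.16 and 23.28 CPM in Cre- libraries and at 44.65, 51.59 and 54.97 CPM in Cre+ libraries. It rose by 1.02 ± 0.12 in log2 (adjusted p 0.0001293, edgeR). Gadd45g, a stress-responsive growth arrest gene, was at 35.71, 44.05 and 34.5 CPM in Cre- libraries and at 65.86, 62.81 and 68.47 CPM in Cre+ libraries. Both genes had Cre+ values that all stood above the Cre- values, and Gadd45g rose by 0.79 ± 0.12 (adjusted p 0.004119).

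Nnt, the mitochondrial transhydrogenase that makes NADPH, was at 62.41, 51.29 and 63.39 CPM in Cre- libraries and at 79.55, 107 and 102.4 CPM in Cre+ libraries. Cre+ replicate 1 lay between its own group and the Cre- values, and the rise was 0.71 ± 0.12 in log2 (adjusted p 0.007079, edgeR). Its call was lost without Cre- replicate 2, Cre+ replicate 2 or Cre+ replicate 3. Plekha5, a pleckstrin homology domain gene, was at 9.79, 9.152 and 11.59 CPM in Cre- libraries and at 19.24, 19.18 and 19.36 CPM in Cre+ libraries. It rose by 0.92 ± 0.16 (adjusted p 0.01777, edgeR), a call lost in 5 of the 6 fits that leave out 1 library. Syt6, a synaptotagmin gene outside the rule for named genes because of its low level, was at 0.6675, 0.2011 and 0.6652 CPM in Cre- libraries and at 2.505, 2.011 and 2.57 CPM in Cre+ libraries. The log2 rise was 2.18 ± 0.43 with an adjusted p of 0.04799 (edgeR), which every fit without 1 library lost.

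Both remaining genes that fell are uncertain by their sequence. Xlr4a belongs to a family of X-linked near-identical copies and was at 2.559, 5.833 and 4.466 CPM in Cre- libraries and at 1.342, 1.083 and 0.3671 CPM in Cre+ libraries. It fell by 2.18 on the log2 scale (SE 0.42, adjusted p 0.03756, edgeR), a call that 5 of the 6 fits without 1 library lost. Gm10925, an unprocessed pseudogene on chromosome 1 and outside the rule for named genes, was at 45.28, 48.48 and 36.3 CPM in Cre- libraries and at 23.89, 25.22 and 27.35 CPM in Cre+ libraries. Its log2 fold change was -0.77 ± 0.14 (adjusted p 0.03221, edgeR), and 5 of those 6 fits lost it too.

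Crtap lies at a distance of -5.53 Mb from Cx3cr1, towards the start of chromosome 9 (chr9:114375134-114390675, GRCm38), the chromosome that carries the Cre+ allele. Within 10 Mb of Cx3cr1, 136 genes were tested, 1 was called, and 16 (11.76%) had an unadjusted p under 0.05, of which 10 were higher and 6 lower. That share was 6.57% of the 137 genes from 10 to 20 Mb and 8.18% of the 14841 genes on other chromosomes. An unadjusted p under 0.001 was found for 4 of the 136 genes (2.94%) and for 0 of the 137. It was found for 0.637% of the 628 genes farther along chromosome 9 and for 0.35% on other chromosomes. Those 4 are Crtap, Limd1, Glb1 and Lars2, the last with a log2 fold change of -0.44 (adjusted p 0.211, edgeR). Genes near Cx3cr1 with small p but no call went both ways. Limd1, 3.58 Mb from Cx3cr1, had a log2 fold change of 0.69 (adjusted p 0.0669, edgeR). Glb1, the lysosomal beta-galactosidase gene beside Crtap, had -0.51 (adjusted p 0.135), and Tmppe, a gene at the same distance, had 0.52 (adjusted p 0.295). An effect of the region linked to the allele cannot be told apart here from one of the Dicer1 knockout, of the recombinase or of lower Cx3cr1. All of these go with the Cre+ label, and the deletion of Dicer1 was not checked in these libraries.

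**Figure D2:**
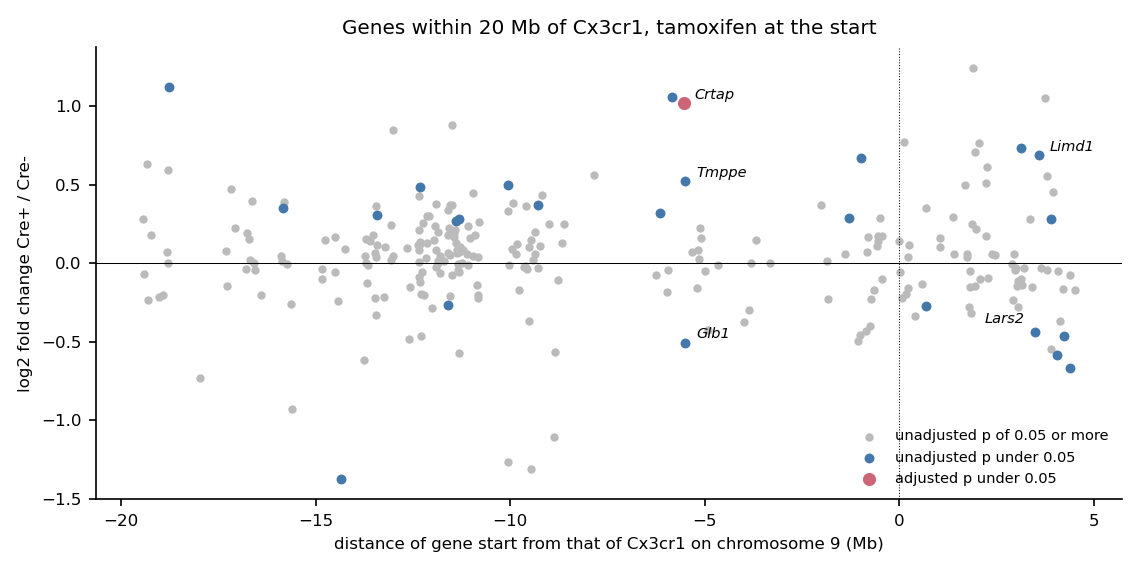
Fitted log2 fold change, Cre+ against Cre-, of each gene tested within 20 Mb of Cx3cr1 on chromosome 9, against the distance of its start from that of Cx3cr1 in Mb (Cx3cr1 itself left out). Blue points have an unadjusted p under 0.05, and Crtap, in red, is the 1 gene called within 10 Mb.

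The peak groups have their own Cre- libraries, so both timings can be set side by side and their difference tested. In the peak groups 1840 genes passed (11.7%), 1076 higher (6.83%) and 764 lower (4.85%). Of the 16 genes called at the start, 10 passed there too, and all 10 moved in the same direction. They include Hspa1a with a log2 fold change of 1.11 (adjusted p 3.969e-06, edgeR), Hspa1b with 1.04, Hsph1 with 0.85, Dnajb1 with 0.47, Hsp90aa1 with 0.54 and Gadd45g with 0.61. Hspa1a stood at 291.4, 271 and 291 CPM in the Cre- peak libraries and at 734.4, 504 and 602.7 CPM in the Cre+ ones, again without overlap. None of these 6 had a different effect by timing at an adjusted p under 0.05, and Hspa1a had the value 0.268. Of the chaperone list, 6 genes passed in the peak groups, with a list median of 0.23. One of those 6 is Hspa5, at 0.46 (adjusted p 0.007015).

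The effect itself differed between timings for 616 genes (3.91%), with 230 higher at the start (1.46%) and 386 lower (2.45%). Without Cre- replicate 2, Cre- replicate 3 or Cre+ replicate 2 of the start the count was 383, 402 or 314. Of the 16 genes called at the start, 4 are among them. For Hspb1 the effect was 1.38 at the start and -0.07 at the peak, a difference of 1.45 ± 0.34 (adjusted p 0.01656, edgeR). In the peak groups Hspb1 ran from 2.972 to 3.701 CPM in Cre- libraries and from 3.005 to 3.726 CPM in Cre+ libraries, so these overlapped. The Crtap effect was 0.86 ± 0.17 larger at the start (adjusted p 0.004927), that of Nnt 0.66 ± 0.16 (adjusted p 0.024) and that of Hspe1 0.63 ± 0.16 (adjusted p 0.02838). The log2 fold change of Crtap at the peak was 0.16 (adjusted p 0.435).

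**Figure D3:**
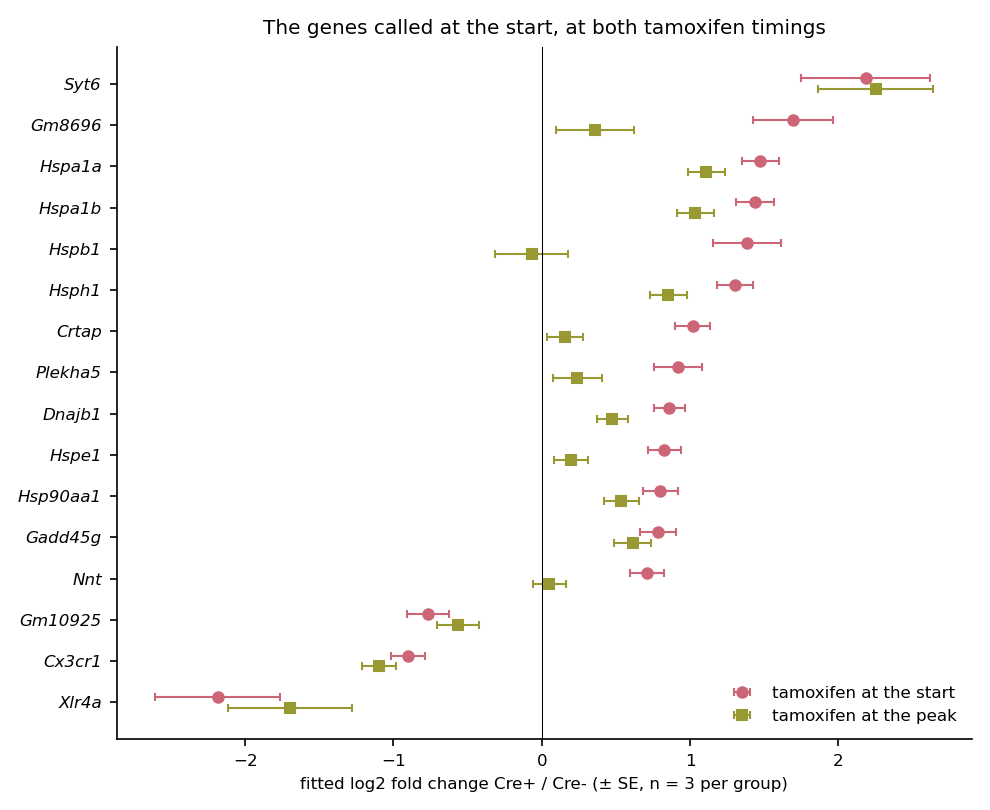
Fitted log2 fold change, Cre+ against Cre-, of the 16 genes called with tamoxifen at the start (circles) and the same genes with tamoxifen at the peak (squares), bars being 1 standard error, 3 libraries per group. Hspb1, Crtap, Nnt and Hspe1 are the genes whose fold changes differ between the timings by the test of the difference.

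The lists of cell cycle genes stood apart between the timings. Of 20 mitosis genes, 0 passed at the start, where the list median was -0.52 against 0 for all genes. In the peak groups all 20 rose, with a median of 3.37. For all 20 the effect was lower at the start by the test of the difference, set against 2.45% of all genes. Mki67, the proliferation marker Ki-67, was at 4.673, 8.146 and 7.507 CPM in Cre- start libraries and at 3.221, 4.177 and 2.478 CPM in Cre+ ones. Its log2 fold change was -1.03 (adjusted p 0.0768, edgeR) at the start and 4.35 at the peak. Pbk, a mitotic kinase gene, had -1.20 at the start (adjusted p 0.179) and 4.31 at the peak. Pcna, the replication clamp, had -0.37 at the start (adjusted p 0.354), and 18 of 20 DNA replication genes rose at the peak. These start values did not pass the test in the fit to the 12 remyelination libraries. Mki67 was called lower at the start by other fits. These were DESeq2 (54 calls in all), no filter on low counts (140), a GC and length correction (29) and a block for the replicate number (28), and the last 2 combined (47). The fit with no filter also called Ccnb1, Kif11, Pbk and Top2a lower. Leaving out Cre- replicate 2 moved the mitosis median to -0.29, and leaving out Cre- replicate 1 moved it to -0.79 with 1 gene called lower.

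In the other states the comparison rests on a fit to all 24 libraries, in which 3 libraries labelled Cre+, naive replicate 1 and demyelination replicates 1 and 3, had Cx3cr1 levels of 89.62 to 227.1 CPM. The other Cre+ libraries had from 2312 to 4571 CPM on that scale. In this fit the naive contrast called 4982 of 17579 genes (28.3%), demyelination 1612 (9.17%) and the start contrast 6 (0.0341%). The effect differed from the start for 1802 genes in the naive state (10.3%) and for 657 in demyelination (3.74%). The naive count was 1189 without Cre- replicate 3 and 1120 without Cre+ replicate 1 of the start. The demyelination count was 361 without Cre- replicate 1, 89 without Cre- replicate 2, 310 without Cre+ replicate 1, 107 without Cre+ replicate 2 and 44 without the 3 low libraries. A fit without those 3 libraries, added after seeing the data, called 81 of 18027 genes (0.449%) in demyelination and 13 (0.0721%) at the start. At the start Hspa1a had 1.43 in the 24-library fit and lost its call (adjusted p 0.205, edgeR), as did Hspa1b at 1.40 (adjusted p 0.164), Crtap at 0.98 (adjusted p 0.123) and Cx3cr1 at -0.94 (adjusted p 0.832). Without the 3 low libraries all 4 of these were called again, Hspa1a at 1.47 and Cx3cr1 at -0.90, and so was Nnt. Hspb1, Plekha5, Xlr4a, Syt6 and Gm10925 lost their calls in the 24-library fit and did not regain them without the low libraries. The chaperone gene Hspb1 had 1.34 in the first of these fits and 1.38 in the second.

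All 7 chaperone genes that rose at the start were called higher in the naive state as well. Hspa1a had a log2 fold change of 2.69 there (adjusted p 3.09e-05, edgeR; 2.60 without the low libraries), Hspa1b 2.73, Hsp90aa1 1.58, Hspb1 1.37, Dnajb1 0.65, Hspe1 0.64 and Hsph1 0.45. The order of the genes was not the same. By the test of the difference the effect on Hsph1 was larger at the start than in the naive state, by 0.81 (adjusted p 0.01354), whereas for Hsp90aa1 the difference was -0.83 (adjusted p 0.008174). Crtap rose in the naive state, at 1.74, and had 0.02 in demyelination. In demyelination Hspa1a had 2.01 (adjusted p 0.001958, edgeR), but without the low libraries, which leaves 1 Cre+ library there, assumed to vary like the other groups, it had 0.61 (adjusted p 0.452). Hspa1b went from 1.93 to 0.65, Hsp90aa1 from 0.72 to 0.33 and Hspe1 from 0.55 to 0.39 in the same way, and none of these 3 passed in that fit.

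Of 39 gene lists examined, 38 held no call at the start, and the heat shock list is the exception. Several lists leaned lower in Cre+ mice without a gene passing in the fit to the 12 remyelination libraries. Other fits called some members lower. With only the 6 start libraries these included 1 mitochondrially encoded and 1 disease-associated gene, among 40 calls in all. With DESeq2 they included Egr1, Nr4a1 and Cd63, among 54 calls, and the ribosomal protein genes Rps7 and Rps25 were also lower. With no filter on low counts they included mt-Atp6, mt-Co3, mt-Nd1, Egr1, Cd63 and Lpl, among 140 calls. Ribosomal protein genes such as Rps7, Rps25 and Rpl32 were lower there too. A GC and length correction called mt-Atp6, Rps7 and Rps25 lower, among 29 calls. A block for the replicate number called mt-Atp6 lower, among 28 calls. Without Cre- replicate 1, 2 immediate early genes were called lower, and without Cre- replicate 3, 1 nuclear respiratory chain gene. The counts that follow are of an unadjusted p under 0.05 in the 12-library fit. They are to be read against 4.31% of all genes lower and 3.91% higher. Of 26 cytosolic ribosomal protein genes, 21 were lower and 0 higher, with a median log2 fold change of -0.30. Of 13 mitochondrially encoded genes, 11 were lower, with a median of -0.45. Of 26 nuclear respiratory chain genes, 13 were lower, with a median of -0.24. In these lists 0 genes were higher, and all 3 medians lie below the 0 of all genes. In the peak groups 9 of the 13 mitochondrially encoded genes were called lower by the adjusted test, with a median of -0.65. There 2 of the 26 ribosomal protein and 0 of the 26 respiratory chain genes were called lower, against 4.85% of all genes. The effect differed between timings for 0 genes of these 3 lists, against 3.91% of all genes.

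The immediate early and cytokine lists also leaned lower. Of 21 immediate early and dissociation genes, 11 were lower and 0 higher, with a median of -0.63. Egr1, an immediate early transcription factor, was at 306.6, 546.7 and 374.7 CPM in Cre- libraries and at 193.7, 205.4 and 251 CPM in Cre+ libraries (log2 fold change -0.92, adjusted p 0.166, edgeR). Of 17 cytokine and chemokine genes, 6 were lower and 1 higher, with a median of -0.52. Il1b, the gene of interleukin-1 beta, was at 103.1, 228.7 and 106.4 CPM in Cre- libraries and at 63.98, 65.98 and 62.59 CPM in Cre+ libraries (log2 fold change -1.19, adjusted p 0.385). In both genes Cre- replicate 2 was the highest library, and without it the value of Egr1 was -0.65 (adjusted p 0.270).

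Of 28 disease-associated microglia genes, which mark microglia around damaged myelin or plaques, 10 were lower and 0 higher, with a median of -0.26. Cd63, a lysosomal tetraspanin, had -0.53 (adjusted p 0.119, edgeR), and the same gene fell in the peak groups, at -1.10. Lpl, lipoprotein lipase, had -0.48 (adjusted p 0.322). Homeostatic microglia genes had 1 of 20 higher and 1 lower, with a median of 0.01. Their members with the smallest p were Cst3, the cystatin C gene, at -0.24, and Olfml3 at 0.24, neither called.

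Cre- replicate 2 stood apart from the other start libraries in the immediate early and cytokine lists and in the neutrophil markers. In the mitochondrially encoded list Cre- replicate 3 deviated as far, with a median of -0.239 from the Cre- mean against 0.215 for Cre- replicate 2. Its immediate early genes summed to 13660 CPM, against 6803 to 9323 CPM in the other 5 libraries, and its cytokine genes to 3433 CPM against 1406 to 2028 CPM. Its neutrophil markers summed to 4893 CPM, against 450.5 to 2073 CPM elsewhere. Without that library 315 genes (1.94%) were lower and 407 higher at an unadjusted p under 0.05. The count of lower genes then went to 8 of 21 for immediate early genes, 6 of 26 for ribosomal protein genes, 6 of 13 for mitochondrially encoded genes, 3 of 26 for respiratory chain genes, 3 of 28 for disease-associated genes and 3 of 17 for cytokine genes. The medians became -0.31, -0.18, -0.39, -0.16, -0.13 and -0.17 in that order. Leaving out Cre+ replicate 2 also lowered some counts, to 10 of 26 ribosomal protein, 5 of 26 respiratory chain and 6 of 28 disease-associated genes. With 18 tested, it left 2 cytokine genes lower. Of all genes 2.62% were lower in that fit. Without Cre+ replicate 1, 7 of 13 mitochondrially encoded genes were lower, but 26 of 26 ribosomal protein genes were, against 3.55% of all genes. Without Cre- replicate 1, 15 of 28 disease-associated and 15 of 21 immediate early genes were lower, against 4.01% of all genes. The heat shock list kept 7 calls without Cre- replicate 2, with a median of 0.46.

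**Figure D4:**
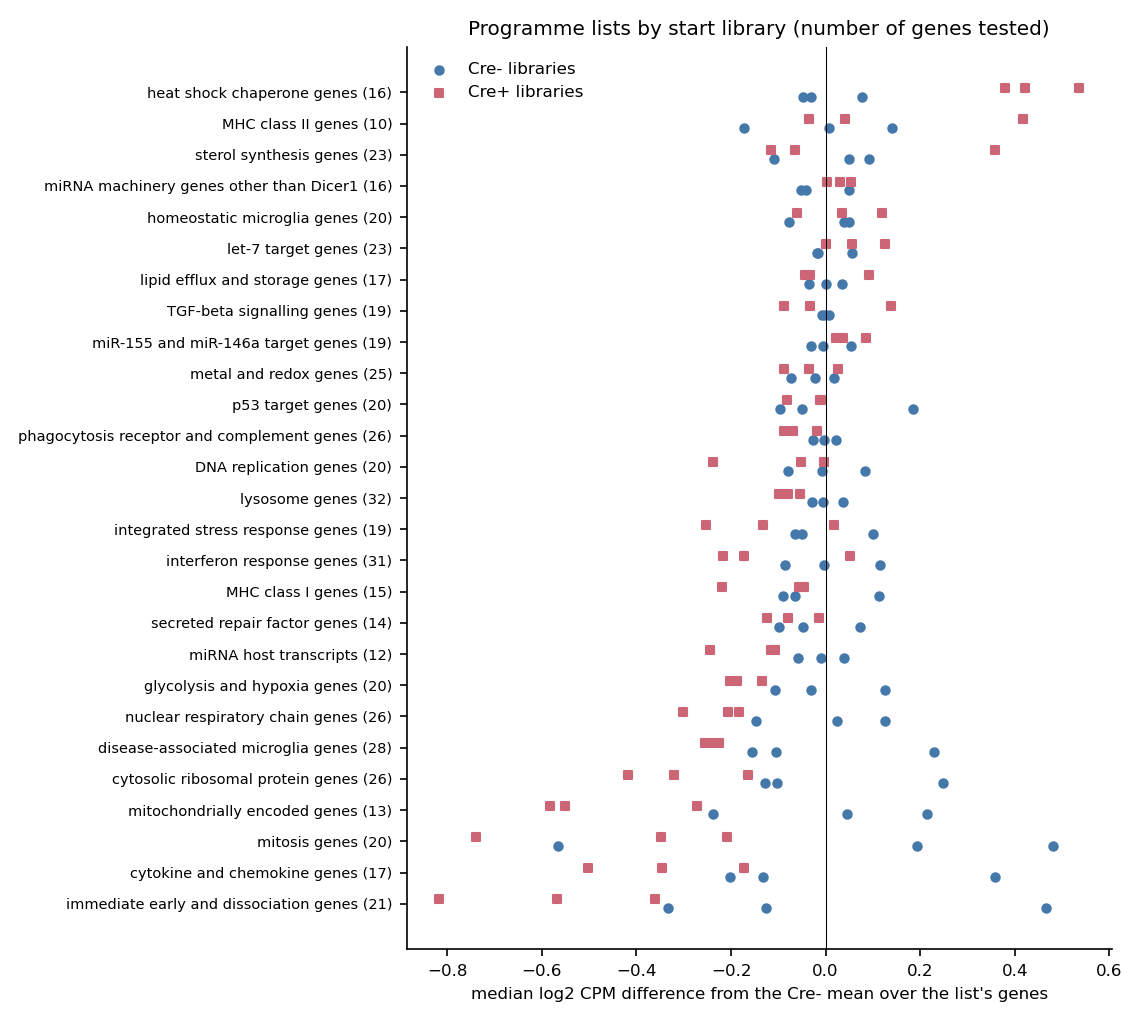
Median over each gene list of the log2 CPM difference from the Cre- mean, 1 point per start library (circles Cre-, squares Cre+), for 27 lists with the number of genes tested in brackets. The heat shock list has its 3 Cre+ libraries to the right of all Cre- libraries, and the immediate early list has Cre- replicate 2 at 0.47.

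Lists tied to microRNAs showed no call. Of 16 other genes of the microRNA machinery, 0 were higher or lower at an unadjusted p under 0.05, with a median of 0.03. Of 23 let-7 target genes, 2 were higher and 0 lower, with a median of 0.001. Those are Ccnd1, the cyclin D1 gene, at 0.41 (adjusted p 0.545, edgeR), and Arid3b at 0.22 (adjusted p 0.548). Of 19 miR-155 and miR-146a target genes, 0 were higher or lower.

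Seed matches in 3′ untranslated regions were also counted, over 12576 genes. The microRNAs named next are 3 families found in microglia and a heart family as a control, printed from RefSeq with bases 2 to 8, the seed, in capitals.
let-7a-5p: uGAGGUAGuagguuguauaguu
miR-125b-5p: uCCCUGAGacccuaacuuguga
miR-24-3p: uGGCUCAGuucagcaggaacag
miR-208a-3p: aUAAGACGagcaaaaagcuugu

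Genes with a match to the let-7 seed (CTACCTC) had a median log2 fold change 0.032 above genes without it. For miR-125 (CTCAGGG) the difference was 0.05, and for miR-24 (CTGAGCC) it was 0.044. The heart family miR-208 (CGTCTTA) had 0.027. Over 20 families the difference ran from -0.007 to 0.05, and for every family named in this paragraph the genes with a match had longer untranslated regions, at a median of 2458 against 1125 bases for let-7. Fold change and transcript length had a Spearman rho of 0.133 across genes, given as a description over genes that are not independent.

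Markers of other cell types were measured in the same libraries. The microglia markers summed to between 40580 and 45560 CPM over the 6 libraries, with a median log2 fold change of -0.06, and P2ry12, Tmem119 and the other members were all detected. No marker of the 12 lists was at 0 in all 6 libraries. In bulk samples, more cells of a type and more RNA per cell cannot be told apart.

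Markers of the cells of blood vessel walls gave no call. The 10 mural cell markers summed to 85.11, 72.92 and 56.83 CPM in Cre- libraries and to 144.6, 122.8 and 148.9 CPM in Cre+ libraries, without overlap. The list median was 0.92, with 3 members higher at an unadjusted p under 0.05 and 0 called. Pdgfrb, the pericyte growth factor receptor, had a log2 fold change of 0.97 (adjusted p 0.366, edgeR). The fit to only the 6 start libraries called 40 genes in all, against 16 in the fit to 12. There 3 of the 10 mural markers passed the adjusted test: Pdgfrb, Vtn, the vitronectin gene that pericytes express, and Myh11, the smooth muscle myosin gene. The 12 endothelial markers summed to 122.6, 173.4 and 103.7 CPM in Cre- libraries and to 164.4, 194 and 266.2 CPM in Cre+ libraries, with overlap and a median of 0.66, or 0.40 without Cre+ replicate 3 and 1.03 without Cre- replicate 2. In the peak groups the mural median was -1.5. The part of vessel cells in the chaperone values was not tested.

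The 12 neutrophil markers summed to 642.6, 4893 and 2073 CPM in Cre- libraries and to 904.1, 1349 and 450.5 CPM in Cre+ libraries. Their median log2 fold change was -1.57, or -0.71 without Cre- replicate 2, with 0 genes at an unadjusted p under 0.05. The 11 monocyte markers had a median of -0.94, or -0.54 without Cre+ replicate 3 and -0.595 without Cre- replicate 2, and sums of 253.3, 622.3 and 440.9 CPM in Cre- libraries against 301.3, 306.6 and 193.8 CPM in Cre+ libraries. Lymphocyte markers summed to 622.2 to 685.3 CPM in Cre- libraries and 517.2 to 531.3 CPM in Cre+ libraries. Nearly all of that was Ighm, the immunoglobulin mu heavy chain gene, and the other 16 markers summed to 11.36 to 17.58 CPM in Cre- libraries and 7.342 to 12.44 CPM in Cre+ libraries, which overlapped. The part of these cells in the values of the immune lists was not tested. Border macrophage markers overlapped, from 1016 to 1270 CPM in Cre- libraries and from 1031 to 1562 CPM in Cre+ libraries. Oligodendrocyte markers ran from 943.5 to 1730 CPM and from 963.3 to 1337 CPM, and astrocyte markers from 689.6 to 1230 CPM and from 852.5 to 931.9 CPM, in the same order.

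**Figure D5:**
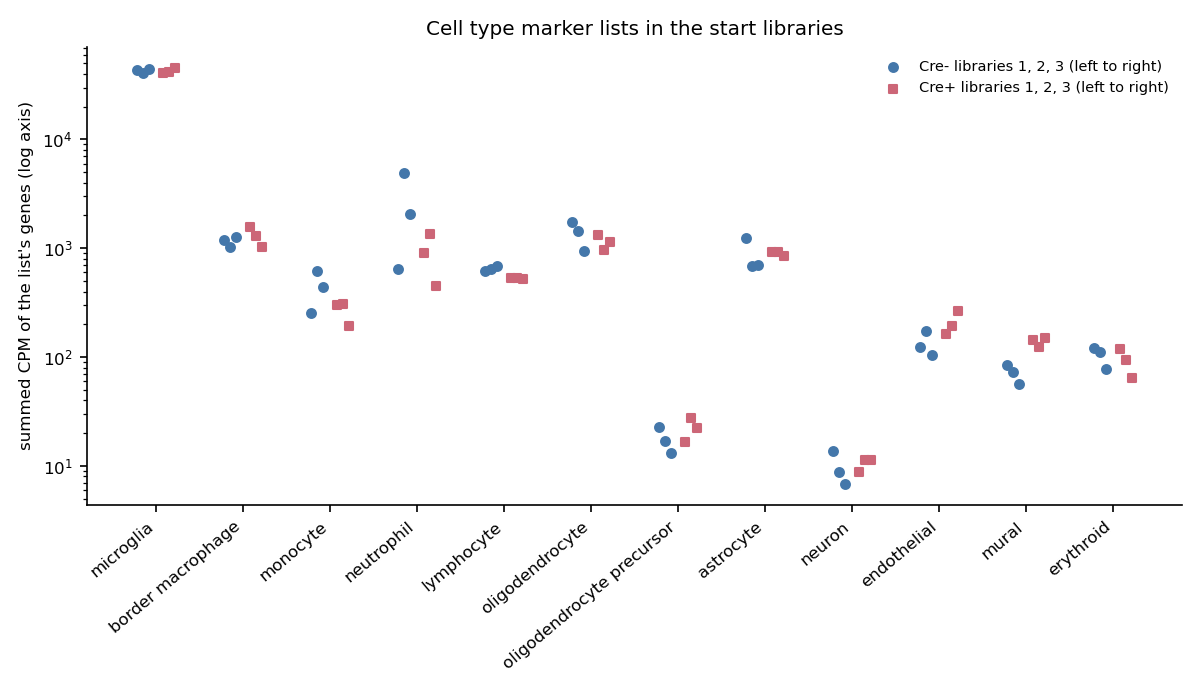
Summed CPM of 12 lists of cell type markers in the 6 start libraries (log axis), circles Cre- and squares Cre+, 1 point per library. Mural markers separate the genotypes, at 56.83 to 85.11 CPM against 122.8 to 148.9 CPM, lymphocyte markers, nearly all Ighm, are lower in Cre+ libraries, and neutrophil markers spread most within Cre- libraries.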

How the data were processed

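The deposited table holds raw read counts per Ensembl gene for each library. Per the submitters' processing notes, the tools were Trimmomatic 0.36, STAR 2.5.2b, featureCounts of Subread 1.5.2 and DESeq2, with build GRCm38. Whether counting used the strand, and what became of multimapping reads, is not given in the sources used here. Symbols and positions came from GENCODE M21, in which 49056 of the 49315 identifiers were found and 259 were not.

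Counts were filtered by filterByExpr, scaled by TMM and fitted in edgeR 4.0.16 (R 4.3.3) to the 12 remyelination libraries with 4 group means, which left 8 residual degrees of freedom. Each contrast had a 2-sided robust quasi-likelihood F test, and p-values were adjusted over all genes tested by the Benjamini-Hochberg method, with a threshold of 0.05. Start libraries held between 8873275 and 12560540 counts, which limits precision for genes of a few CPM. The procedure was tested on simulated counts first. Same-group library pairs had chi-square values per degree of freedom from 7.01 to 12.78, so none was taken for a library deposited more than once.

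The genes named are Dicer1 and Cx3cr1, up to 12 called genes per direction ranked by fold change (symbols of Gm or Rik type left out, mean log2 CPM no lower than 1, groups without overlap), then those with the smallest p where fewer were called, and up to 3 genes per list with the smallest p. Other chaperones, Tmppe, Lars2, the genes named for their calls in other fits and the called genes outside this rule were chosen after their values were seen. The members and lists, and the choice of 12 libraries over all 24, were made with earlier results of these data known. Replicate numbers were shared between genotypes, but same-numbered start libraries deviated together with r of 0.04, -0.035 and -0.041, so the start samples were not treated as paired. In the peak groups the values were 0.182, 0.344 and 0.104, all above 0.1, and differently numbered peak libraries had -0.221 to 0.046. The numbers may pair the samples there, but the labels name no pairing. Among the start libraries, Cre- replicate 3 and Cre+ replicate 2 reached 0.138. The peak and timing counts in the results come from the fit without a replicate block, and those with it are given below. Alternatives tried were RLE scaling, DESeq2 1.42.0, other filters, other sets of libraries, a replicate block, a GC and length correction and leaving out each library. Promoter and microRNA sequences are from RefSeq (GRCm38.p6), with 250 bases read before each start.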

Additional observations from a re-analysis of the deposited data

Results flagged for a closer look

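For 18 named genes the genotype effect differed between the start and the peak groups by the test of the difference (log2, start minus peak). Over all 15743 genes it differed for 616 (3.91%). Most named genes were chosen by their p at the start, which enters this difference, so their count cannot be weighed against that share. Of the genes called at the start, the difference was 1.45 for Hspb1, 0.86 for Crtap, 0.63 for Hspe1 and 0.66 for Nnt. The cell cycle genes were far lower at the start, with -5.38 for Mki67, -5.52 for Pbk, -4.76 for Ccnb1, -4.82 for Kif11, -3.84 for Uhrf1, -2.57 for Ccne2 and -0.76 for Pcna. For Plpp1, a lipid phosphatase gene, it was -0.87, for Glb1 -0.60 and for the chemokine gene Ccl9 -0.81. The vessel markers Pdgfrb, Vtn, Kcnj8 and Pecam1 had 2.47, 2.70, 3.27 and 1.22.

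In the fit to 24 libraries, the difference of start minus naive was 0.81 for Hsph1, -0.83 for Hsp90aa1 and -1.29 for the pseudogene Gm8696. The difference of start minus demyelination was 0.96 for both Hsph1 and Crtap, 0.91 for Gadd45g and -3.73 for Xlr4a. Those 4 demyelination values rest in part on 2 of the 3 Cre+ libraries with low Cx3cr1.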

How the results depend on the processing

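The number of genes called at the start, 16, was 6 in the fit to all 24 libraries, 40 with only the 6 start libraries, 54 with DESeq2, 140 with no filter on low counts and 29 with a GC and length correction. It was 28 with a replicate block and 47 with the replicate block and that correction, and ran from 11 to 16 when 1 library was left out. Hspe1, Hsph1, Dnajb1, Gadd45g and Hsp90aa1 were called in all 17 alternatives. With the replicate block, 2174 genes were called at the peak (1840 without it) and 806 differed between timings (616 without it). Among the 16 genes called at the start and Dicer1, the block changed 1 call in those contrasts, the timing difference of Gm8696 (adjusted p 0.04644). The difference between start and peak gave 1022 with no filter and 1149 with the replicate block and correction, and 314 to 613 when 1 library was left out. Against demyelination (657) it gave 44 without the 3 low-Cx3cr1 libraries, and 89 to 658 when 1 start library was left out, and against naive mice (1802) 1120 to 1497.

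The 7 risen chaperone genes became 4 with all 24 libraries and stayed between 6 and 7 when 1 library was left out. The 1 call within 10 Mb of Cx3cr1 became 0 with 24 libraries, 4 with 6 libraries, 4 with DESeq2, 7 with no filter, 2 with the replicate block, 5 with the block and correction, 4 with the correction alone, 2 without the 3 low-Cx3cr1 libraries, and 1 to 2 when 1 library was left out. The count at the peak stayed within 1.5 times its value in every alternative run. Dicer1, not called, ran from -0.1 to 0.006 in log2 when 1 library was left out, and changed sign without Cre- replicate 2. The causes were not tested. Among the fold changes of named genes, 378 kept their direction and side of the threshold, 47 newly passed it, 48 lost it and 1 changed sign. Genes of a few CPM, such as Syt6, Xlr4a and Hspb1, rest on few counts.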

Other observations

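Among lists not described above, the metal and redox genes had 2 of 25 members higher and 2 lower at an unadjusted p under 0.05. Hmox1, heme oxygenase 1, was at 46.5, 62.15 and 48.75 CPM in Cre- libraries and at 82.14, 75.8 and 68.01 CPM in Cre+ libraries, with a log2 fold change of 0.52 (adjusted p 0.194, edgeR). Slc30a1, a zinc exporter, had 0.51 (adjusted p 0.287), with groups that did not overlap. Of 20 glycolysis and hypoxia genes 7 were lower, with a median of -0.20 (2 lower and a median of -0.10 without Cre- replicate 2, 4 lower without Cre+ replicate 2), and the lactate dehydrogenase gene Ldha had -0.28 (adjusted p 0.408). All 10 MHC class II genes had a positive fold change, with a median of 0.16 and 1 member at an unadjusted p under 0.05, H2-DMb2 (adjusted p 0.500). Without Cre+ replicate 1 that median was -0.01, with 0 members at that level. Of 31 interferon response genes 5 were lower, with a median of -0.08 (8 lower, a median of -0.21 and 1 called without Cre+ replicate 1, 1 lower without Cre+ replicate 2), and Ifitm3 had -0.52 (adjusted p 0.386). Sterol synthesis genes had 0 of 23 at that level and a median of 0.07, which was -0.08 without Cre+ replicate 1. None of these genes passed the adjusted test in the fit to the 12 remyelination libraries. Of the genes named here, Hmox1 was called higher with no filter on low counts and with the replicate block and GC and length correction. Ifitm3 was called lower with no filter. Of all genes, 1.94% were lower at an unadjusted p under 0.05 without Cre- replicate 2, 3.55% without Cre+ replicate 1 and 2.62% without Cre+ replicate 2.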
